A study of Mus musculus with 24 samples.

Results

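The 36 genes described here belong to the cell division cycle and to DNA replication, among them CCND1, MCM2, MKI67, CDK1 and PCNA. They were chosen by symbol, as the rows whose feature name in the authors' deposited table equals one of 36 listed symbols, with no measured value in the rule. The list of symbols was, however, drawn up with earlier results of these data known. Shares of called genes below, set beside those of all coding features, are therefore descriptions only. All 36 were found among 75794 features, of which 20879 are coding. The table summarises liver RNA of mice (Mus musculus) with floxed growth hormone receptor alleles (Ghr fl/fl, C57BL/6), 6 animals in each of 4 groups, sampled 7 days after 1 tail vein injection of adeno-associated virus (AAV8) at 10 to 12 weeks of age on a chow diet. All animals are labelled male, whereas the treatment protocol also speaks of females.

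The vectors drove their cargo in hepatocytes through the promoter of thyroxine-binding globulin. In units of 1e+11 genome copies, aHepGHRkd_STAT5bCA mice received Cre recombinase at 1.5 and a constitutively active mouse STAT5b at 0.75. aHepGHRkd_rIGF1 mice received Cre at 1.5 and rat IGF1 at 2.0. aHepGHRkd mice received Cre at 1.5, which removes the floxed part of Ghr in hepatocytes. Control mice had no Cre and received an empty (Null) vector only. Null vector filled every dose up to 3.5, so the groups differ in the amount of Null vector as well, and the Cre groups differ from Control in Cre itself. Ghr stood at 49.4 TPM in aHepGHRkd_STAT5bCA livers, 58.4 in aHepGHRkd_rIGF1 livers, 55.1 in aHepGHRkd livers and 180 in Control livers (the authors' deposited table; TPM is transcript abundance scaled by length and by library). Stat5b stood at 30.0, 12.1, 10.6 and 8.44 TPM in the same groups.

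A cell enters the cycle when D-type cyclins with Cdk4 or Cdk6, and then cyclin E with Cdk2, relieve the block that the retinoblastoma family places on E2F transcription factors. Licensing factors load the Mcm2-7 helicase on replication origins before replication enzymes copy the DNA. Cyclin A and cyclin B with Cdk1 then carry the cell into mitosis. Adult hepatocytes are mostly quiescent and often polyploid, and in mice they can re-enter the cycle after injury or partial hepatectomy. Genes of the early steps are typically controlled through E2F elements, and genes of G2 and mitosis through CHR elements (cell cycle genes homology regions) and CCAAT boxes.

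Upstream sequences are shown for some of the genes that rose in 1 of the comparisons, picked as examples of early and late genes of the cycle. RefSeq promoter windows (GRCm38.p6), from 250 bases before to 50 bases after the annotated start, were at hand for 28 of the 36 genes, and 2 of these (Mcm7 and Ccnd3) have more than 1 window. There was no entry for Aurkb, Ccna2, Ccnd1, Ccnd2, Ccne2, Foxm1, Kif20a and Mcm4. Each sequence below runs 5′ to 3′ in the gene's direction, from 250 bases before the start to 30 bases after it. Capitals mark 3 kinds of match, on either strand. The CCAAT box is read in reverse as ATTGG. For E2F the letters searched were TTTCCCGC, TTTCGCGC, TTTGCCGC and TTTGGCGC. For CHR they were TTTGAA and, as the other accepted form, TTCGAA.
Cdk1 (chr10:69352883-69353162, minus strand): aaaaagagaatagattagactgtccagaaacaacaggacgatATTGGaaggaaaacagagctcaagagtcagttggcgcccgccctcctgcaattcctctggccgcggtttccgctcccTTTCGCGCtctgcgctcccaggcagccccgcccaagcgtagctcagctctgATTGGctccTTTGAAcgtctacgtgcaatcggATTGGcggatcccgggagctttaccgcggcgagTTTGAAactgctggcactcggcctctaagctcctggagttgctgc
Ccnb2 (chr9:70421525-70421804, minus strand): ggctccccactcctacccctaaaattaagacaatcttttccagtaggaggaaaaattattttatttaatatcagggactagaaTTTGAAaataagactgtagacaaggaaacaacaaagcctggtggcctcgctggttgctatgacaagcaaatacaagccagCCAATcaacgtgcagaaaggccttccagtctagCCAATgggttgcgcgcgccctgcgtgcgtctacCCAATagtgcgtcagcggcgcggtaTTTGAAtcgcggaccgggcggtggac
Cdc20 (chr4:118437314-118437593, minus strand): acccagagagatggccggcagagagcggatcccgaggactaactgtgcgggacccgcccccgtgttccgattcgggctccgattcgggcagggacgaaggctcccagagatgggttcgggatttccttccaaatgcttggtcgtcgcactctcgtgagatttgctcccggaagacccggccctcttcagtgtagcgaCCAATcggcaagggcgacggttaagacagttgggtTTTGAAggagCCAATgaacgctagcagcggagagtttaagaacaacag
Mki67 (chr7:135716350-135716629, minus strand): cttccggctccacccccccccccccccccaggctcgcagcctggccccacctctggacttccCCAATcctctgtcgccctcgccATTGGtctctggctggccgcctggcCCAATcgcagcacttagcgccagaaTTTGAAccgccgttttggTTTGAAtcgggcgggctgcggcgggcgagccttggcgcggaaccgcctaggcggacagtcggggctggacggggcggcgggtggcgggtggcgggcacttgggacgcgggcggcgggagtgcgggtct
Cdc6 (chr11:98907901-98908180, plus strand): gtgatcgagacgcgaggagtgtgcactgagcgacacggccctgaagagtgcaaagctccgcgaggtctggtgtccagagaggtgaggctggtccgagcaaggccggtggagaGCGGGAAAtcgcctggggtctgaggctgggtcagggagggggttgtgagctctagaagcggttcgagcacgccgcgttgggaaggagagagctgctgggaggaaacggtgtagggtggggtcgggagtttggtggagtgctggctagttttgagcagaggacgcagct
Mcm3 (chr1:20820283-20820562, minus strand): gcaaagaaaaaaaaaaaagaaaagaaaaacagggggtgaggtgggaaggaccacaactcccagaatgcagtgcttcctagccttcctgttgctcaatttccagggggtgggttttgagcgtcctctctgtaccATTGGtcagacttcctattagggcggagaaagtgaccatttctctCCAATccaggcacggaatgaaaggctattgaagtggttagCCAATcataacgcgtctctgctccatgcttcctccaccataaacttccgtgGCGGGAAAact
The first 4 are genes of G2 and mitosis, and each shows CHR and CCAAT letters together. Cdk1 holds CHR letters beginning at -71 and -15, counted from the start, and an E2F match at -131. Cdc20 holds a CHR match at -18 beside CCAAT at -53 and -8. The last 2 encode licensing factors. Cdc6 shows an E2F match at -138 and no CHR or CCAAT, and Mcm3 shows an E2F match at 20 and CCAAT at -117, -72 and -32. A second E2F match of Mcm3 begins at 39, beyond the bases shown. Not every gene that rose shows this contrast. The window of the licensing gene Mcm2, not shown, holds CHR at -70, CCAAT at -175 and no E2F letters. That of Ccnb1, also not shown, holds CCAAT and no CHR.

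Over all 28 genes with a window, E2F letters occurred in 8 (28.6%), against 2.605% of all 27025 genes with a window. CHR letters occurred in 12 (42.9%), against 21.7% of all genes, and CCAAT in 21 (75%), against 41.1%. CHR letters were commoner in genes of G2 and mitosis, and E2F letters in licensing genes. Of 12 genes of G2 and mitosis, 10 held CHR letters, 11 held CCAAT and 1 (Cdk1) held E2F letters, whereas of the other 16 genes 2 held CHR, 10 held CCAAT and 7 held E2F letters. Apart from Cdk2, those 7 are licensing genes. The early genes Pcna, Rrm1, Rrm2, Tyms, Ccne1 and E2f1 held no E2F letters. The E2F matches of Mcm5 and Mcm6 include pairs that overlap on opposite strands. STAT letters (TTCNNNGAA, which STAT5 proteins can bind) occurred in 1 of 28 windows (Mcm5, at -239), against 9.55% of all genes. These are matches of letters in short windows, not measured binding.

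**Figure D1:**
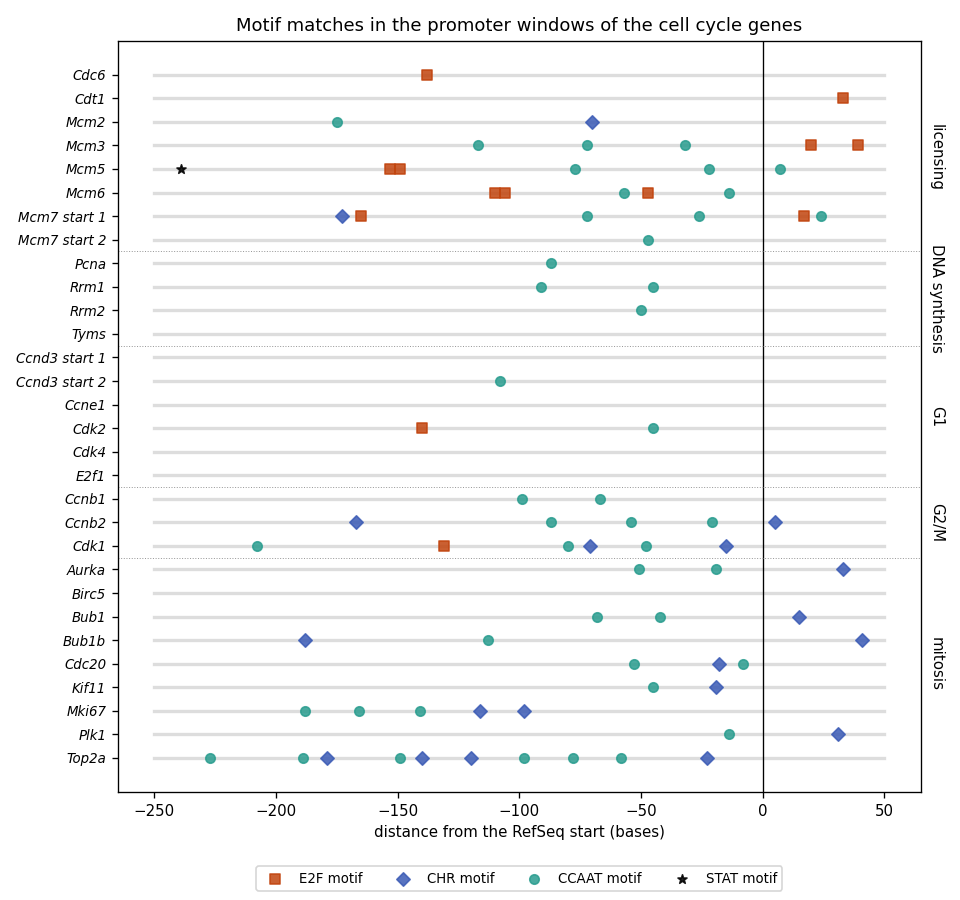
Motif matches in the RefSeq windows of the 28 genes with an entry, by distance from the annotated start in bases (x axis), 1 line per window and grouped by role. Squares are E2F, diamonds CHR, circles CCAAT and the star STAT letters, each placed at its first base. E2F marks gather among the licensing genes and CHR marks among the G2 and mitotic genes, of which 10 of 12 hold one.

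The authors' deposited table holds 1 value per group and no value per animal, so no spread between mice can be given and whether animals of different groups overlap cannot be seen. Its ratio and p for 3 comparisons come from edgeR over all features, and the p, read as adjusted for multiple testing, is called adjusted p below. A gene was called higher or lower where that p was under 0.05. The comparisons of aHepGHRkd_STAT5bCA and of aHepGHRkd_rIGF1 both use the aHepGHRkd animals, which also enter the comparison with Control, so these are not independent of each other. No deposited test sets aHepGHRkd_STAT5bCA or aHepGHRkd_rIGF1 against Control.

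The 36 genes spanned a wide range of levels. Between 20 (Control) and 23 (aHepGHRkd_STAT5bCA) of them reached 1 TPM, and the same 4 in every group reached 10 TPM. These 4 were Ccnd1, Cdk4, Ccnd3 and Pcna, which serve G1 entry and the replication fork. The median over the 36 was 2.55 TPM in aHepGHRkd_STAT5bCA, 1.62 in aHepGHRkd_rIGF1, 1.99 in aHepGHRkd and 1.54 in Control livers, and over all coding features 1.21, 1.37, 1.22 and 1.18 TPM in the same groups (the authors' deposited table). By group value, 26 of 36 genes were highest in aHepGHRkd_STAT5bCA livers, 4 in aHepGHRkd_rIGF1, 5 in aHepGHRkd and 1 (Rrm2) in Control. Control held the lowest value for 21 genes, aHepGHRkd for 9, aHepGHRkd_rIGF1 for 5 and aHepGHRkd_STAT5bCA for 1 (Ccnd3). The same counts over all coding features are not given here. By TPM, 58.9% of tested coding features lay higher in aHepGHRkd than in Control. Set against aHepGHRkd, 38.8% lay higher in aHepGHRkd_STAT5bCA and 71.3% in aHepGHRkd_rIGF1.

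**Figure D2:**
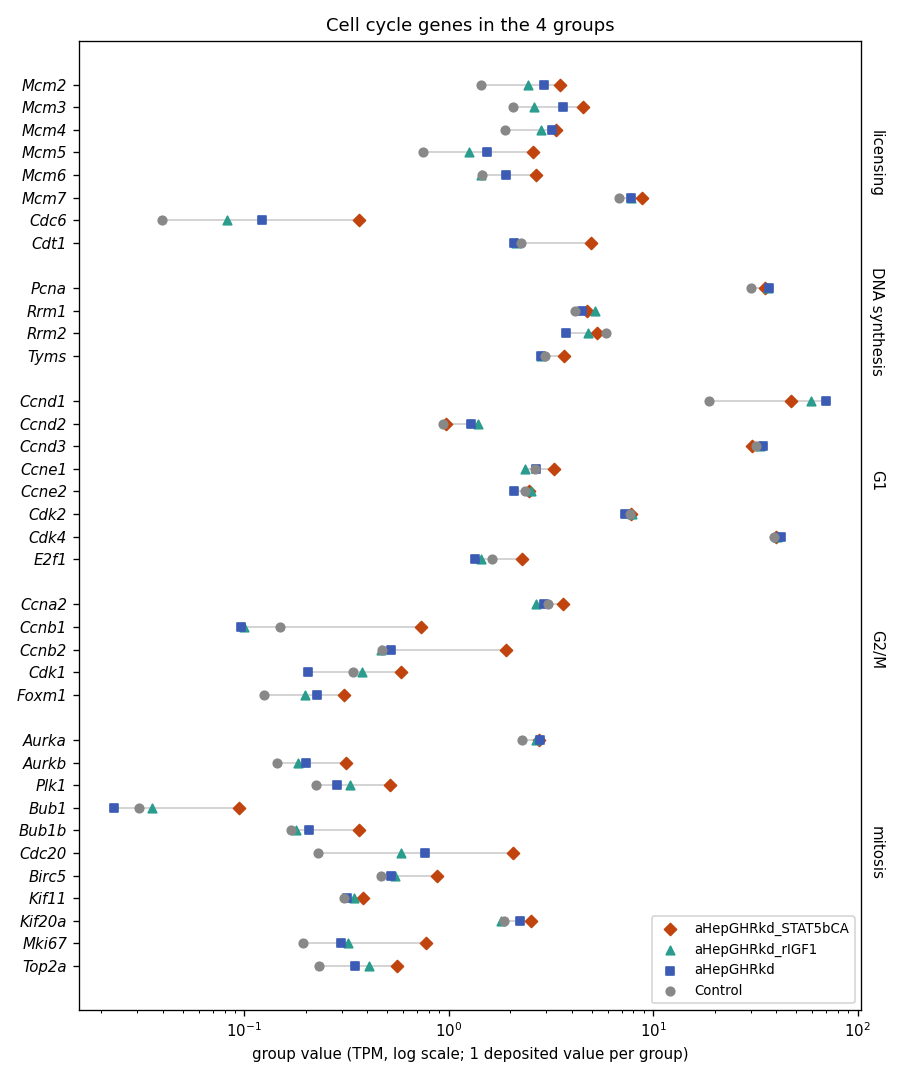
Group TPM of all 36 genes on a log axis (x), ordered by role; diamonds are aHepGHRkd_STAT5bCA, triangles aHepGHRkd_rIGF1, squares aHepGHRkd and circles Control, each a single deposited value per group. The diamonds lie farthest right for 26 of 36 genes, and Ccnd1 is the clearest gene with its square farthest right, at 69.7 TPM against 18.7 in Control.

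Against Control, aHepGHRkd livers had higher transcripts of cyclin D1 and of 3 subunits of the replicative helicase, and a lower transcript of a ribonucleotide reductase subunit. Called higher were Ccnd1, Mcm2, Mcm3 and Mcm4, which is 4 of 36 genes (11.1%), against 2.47% of 13744 coding features with at least 0.1 TPM in 1 or both groups. Called lower was Rrm2, 1 of 36 (2.78%), against 2.89% of coding features, so the share of lower calls was near the background. The other 31 genes were not called, and 24 of all 36 had an adjusted p of exactly 1 in the authors' deposited table. The median log2 ratio over the 36 was 0.23, beside 0.03 over the coding features.

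Against aHepGHRkd, aHepGHRkd_STAT5bCA livers had higher transcripts of the mitotic cyclins B1 and B2, of their kinase Cdk1, of Cdc20 and Mki67, and of the licensing factors Cdc6 and Cdt1. These 7 of 36 genes (19.4%) stand beside 2.66% of 13781 coding features called higher. None of the 36 was called lower by edgeR, beside 0.61% of coding features, and 19 had an adjusted p of exactly 1. The median log2 ratio over the 36 was 0.47, and -0.01 over the coding features.

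Between aHepGHRkd_rIGF1 and aHepGHRkd livers, none of the 36 genes was called by edgeR in either direction. All 36 had an adjusted p of exactly 1, and unadjusted values are not part of the table used here. Few genes of any kind were called in this comparison, namely 0% of 13860 coding features higher and 0.0144% lower. The deposited ratios of the 36 ran between 0.643 (Cdc6) and 1.67 (Cdk1), with a median log2 ratio of -0.14. The direction of small ratios depended on scaling here, since 11 of 36 were above 1 by the deposited ratio and 17 by the ratio of the TPM values, beside 49.1% and 71.3% of the coding features.

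**Figure D3:**
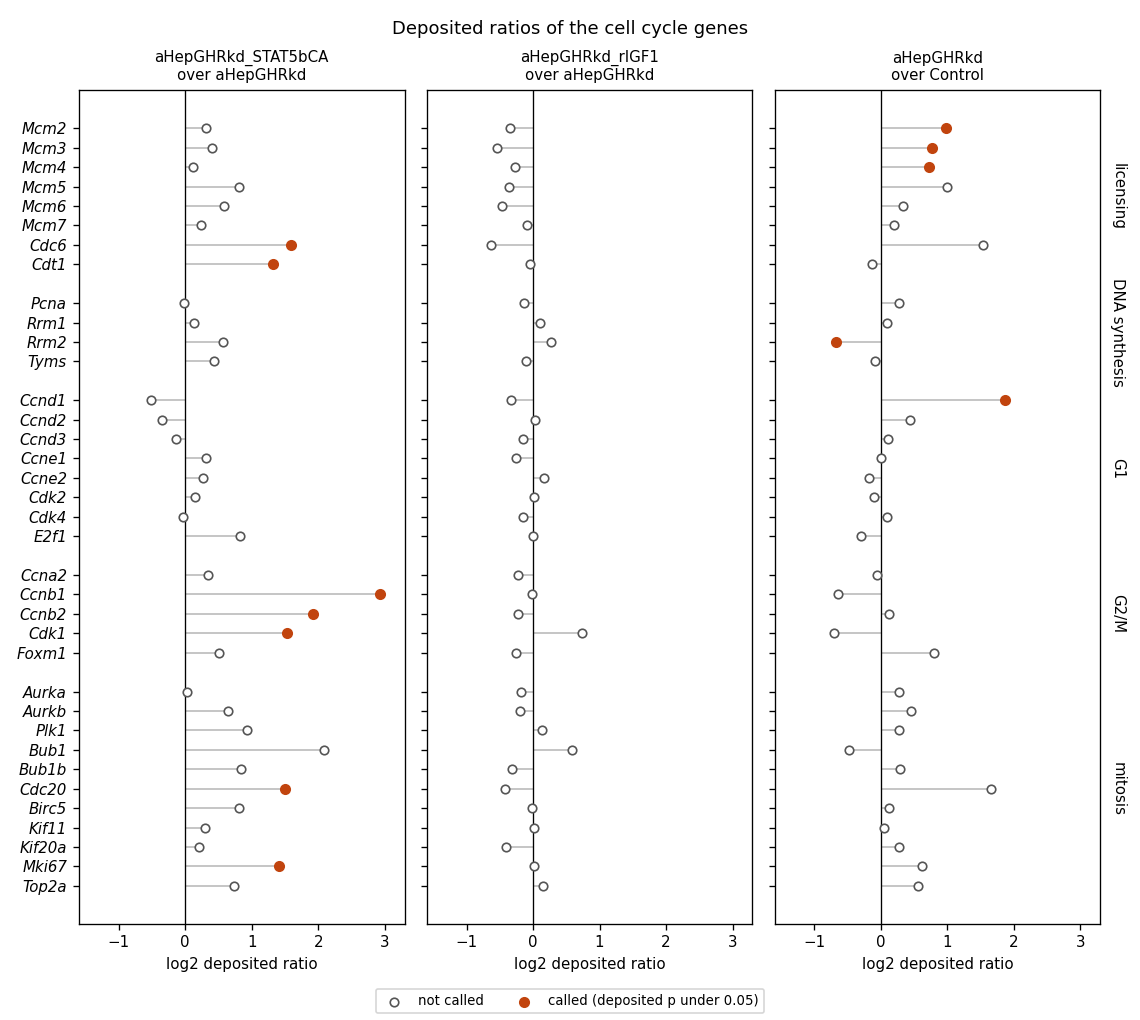
Log2 of the deposited edgeR ratio (x axis) of each of the 36 genes in the 3 comparisons, by role; filled points are called, open points are not. Filled points lie with Ccnd1, Mcm2, Mcm3, Mcm4 and Rrm2 for aHepGHRkd over Control, with 7 other genes for aHepGHRkd_STAT5bCA over aHepGHRkd, and nowhere for aHepGHRkd_rIGF1.

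The origin licensing group has 8 genes, Mcm2 to Mcm7, Cdc6 and Cdt1. Mcm2 to Mcm7 form the ring-shaped helicase, and Cdc6 and Cdt1 load it on the origin. All 8 had their highest value in aHepGHRkd_STAT5bCA livers, and 6 of 8 their lowest in Control. The helicase subunits summed to 25.4 TPM in aHepGHRkd_STAT5bCA, 18.4 in aHepGHRkd_rIGF1, 21.0 in aHepGHRkd and 14.4 in Control livers.

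Mcm2 (mm9 chromosome 6, 88833468 to 88848774, minus strand) stood at 3.49 TPM in aHepGHRkd_STAT5bCA, 2.44 in aHepGHRkd_rIGF1, 2.91 in aHepGHRkd and 1.44 in Control livers. Its ratio of aHepGHRkd over Control was 1.96 (log2 0.97; edgeR adjusted p = 0.00515, the authors' deposited table). Control was the low group, and the 3 groups with Cre lay above it. Mcm3 (chromosome 1, 20793049 to 20810393, minus strand) stood at 4.56, 2.62, 3.61 and 2.06 TPM in aHepGHRkd_STAT5bCA, aHepGHRkd_rIGF1, aHepGHRkd and Control livers. Its ratio of aHepGHRkd over Control in the authors' deposited table was 1.71 (log2 0.78; edgeR adjusted p = 0.0334). Mcm4 (chromosome 16, 15623990 to 15637493, minus strand) stood at 3.33, 2.82, 3.20 and 1.89 TPM in the same order, with a deposited ratio of 1.65 in the authors' deposited table (log2 0.73; edgeR adjusted p = 0.0116). These 3 subunits thus shared 1 order of groups, with aHepGHRkd_STAT5bCA highest and Control lowest. As the licensing genes called for aHepGHRkd over Control, they are 37.5% of that group of 8, beside 2.47% of coding features.

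The other 3 helicase subunits were not called for aHepGHRkd over Control. Mcm5 had a ratio as large as that of Mcm2 but missed the threshold, at 1.54 TPM in aHepGHRkd against 0.750 in Control livers (ratio 1.99, edgeR adjusted p = 0.0905, the authors' deposited table). Mcm6 and Mcm7 had ratios of 1.26 and 1.14, both with an adjusted p of 1 in the authors' deposited table. For aHepGHRkd_STAT5bCA over aHepGHRkd, the 6 subunits had ratios between 1.08 (Mcm4) and 1.75 (Mcm5) and none was called. For aHepGHRkd_rIGF1 over aHepGHRkd, all 6 deposited ratios lay below 1, between 0.683 (Mcm3) and 0.937 (Mcm7), with none called, and Mcm7 lay above 1 by its TPM values.

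Both loading factors rose in aHepGHRkd_STAT5bCA over aHepGHRkd (25% of the 8 licensing genes, beside 2.66% of coding features). Cdt1 (chromosome 8, 125091915 to 125097030, plus strand) stood at 4.96 TPM in aHepGHRkd_STAT5bCA, 2.14 in aHepGHRkd_rIGF1, 2.09 in aHepGHRkd and 2.26 in Control livers. Only the aHepGHRkd_STAT5bCA value stood apart, and the other 3 lay close together. Its ratio of aHepGHRkd_STAT5bCA over aHepGHRkd was 2.49 (log2 1.31; edgeR adjusted p = 2.91e-10, the authors' deposited table), the smallest p among the 36 genes in that comparison, while aHepGHRkd over Control was at 0.908 (adjusted p = 1). Cdc6 (chromosome 11, 98769115 to 98785256, plus strand) was low throughout, at 0.364 TPM in aHepGHRkd_STAT5bCA, 0.0827 in aHepGHRkd_rIGF1, 0.122 in aHepGHRkd and 0.0394 in Control livers. In aHepGHRkd_STAT5bCA over aHepGHRkd it reached 3.02 (log2 1.59; edgeR adjusted p = 0.00687), and in aHepGHRkd over Control 2.90 (adjusted p = 0.444), both in the authors' deposited table. With depth unknown, how many reads lie behind such low values cannot be given.

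The DNA synthesis group holds Pcna, the sliding clamp of the polymerases, Rrm1 and Rrm2, the subunits of ribonucleotide reductase, and Tyms, which makes thymidylate. Rrm2 (chromosome 12, 25393119 to 25399011, plus strand) stood at 5.29 TPM in aHepGHRkd_STAT5bCA, 4.81 in aHepGHRkd_rIGF1, 3.76 in aHepGHRkd and 5.84 in Control livers. It was the only one of the 36 with its highest value in Control, and its ratio of aHepGHRkd over Control was 0.629 (log2 -0.67; edgeR adjusted p = 0.0117, the authors' deposited table). For aHepGHRkd_STAT5bCA over aHepGHRkd it had 1.48 (adjusted p = 0.254), and for aHepGHRkd_rIGF1 over aHepGHRkd 1.20 (adjusted p = 1), both in the authors' deposited table and neither called. Its partner Rrm1 lay between 4.13 TPM (Control) and 5.17 TPM (aHepGHRkd_rIGF1) and was not called in any comparison. Pcna, the most abundant of the group, was at 35.4, 36.2, 37.0 and 30.2 TPM in aHepGHRkd_STAT5bCA, aHepGHRkd_rIGF1, aHepGHRkd and Control livers, with a ratio of aHepGHRkd over Control of 1.21 (adjusted p = 0.298, the authors' deposited table). Tyms gave 3.68, 2.82, 2.82 and 2.97 TPM in these groups, with 1.35 for aHepGHRkd_STAT5bCA over aHepGHRkd (adjusted p = 0.148, the authors' deposited table), and was not called.

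Among the 8 G1 genes, cyclin D1 was the only one called in any comparison. It rose in aHepGHRkd over Control (12.5% of the group, beside 2.47% of coding features). Ccnd1 (chromosome 7, 152115836 to 152125830, minus strand), which starts G1 progression with Cdk4, stood at 47.3 TPM in aHepGHRkd_STAT5bCA, 59.0 in aHepGHRkd_rIGF1, 69.7 in aHepGHRkd and 18.7 in Control livers. All 3 groups with Cre lay above Control, at 2.52, 3.15 and 3.72 times its TPM, of which only the last has a deposited test. The authors' deposited table gives 3.66 for aHepGHRkd over Control (log2 1.87; edgeR adjusted p = 3.13e-18), the largest ratio of the 36 genes in that comparison. It gives 0.704 for aHepGHRkd_STAT5bCA over aHepGHRkd (log2 -0.51; adjusted p = 0.117) and 0.797 for aHepGHRkd_rIGF1 over aHepGHRkd (adjusted p = 1), neither of which was called (the authors' deposited table). Ccnd1 thus ordered the groups differently from the Mcm genes, with aHepGHRkd highest.

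The other D-type cyclins were not called in any comparison, and whether they differ from Ccnd1 was not tested. Ccnd2 (chromosome 6) stood at 0.970, 1.38, 1.28 and 0.933 TPM in aHepGHRkd_STAT5bCA, aHepGHRkd_rIGF1, aHepGHRkd and Control livers, with a ratio of aHepGHRkd over Control of 1.36 (edgeR adjusted p = 0.885, the authors' deposited table). Ccnd3 (chromosome 17) stood at 30.5, 33.4, 34.4 and 31.9 TPM in the same order, with 1.07 (adjusted p = 1, the authors' deposited table). In Control livers Ccnd3 was thus the most abundant of the 3 transcripts per length, whereas in the 3 groups with Cre it was Ccnd1. For aHepGHRkd_STAT5bCA over aHepGHRkd, Ccnd2 and Ccnd3 had ratios of 0.789 and 0.913 (both adjusted p = 1, the authors' deposited table).

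The kinases and the E-type cyclins were not called, and their group values lay close together. Cdk4 lay between 38.9 and 42.0 TPM and Cdk2 between 7.28 and 7.86 TPM over the 4 groups. Ccne1 was at 3.26, 2.36, 2.66 and 2.63 TPM in aHepGHRkd_STAT5bCA, aHepGHRkd_rIGF1, aHepGHRkd and Control livers, and Ccne2 at 2.46, 2.53, 2.08 and 2.36 TPM. E2f1, an activator of S phase genes, stood at 2.28, 1.43, 1.34 and 1.62 TPM in that order. Its ratio of aHepGHRkd_STAT5bCA over aHepGHRkd was 1.77 (edgeR adjusted p = 0.0612, the authors' deposited table) and missed the threshold.

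Of the 5 genes of S phase, G2 and mitotic entry, 3 rose in aHepGHRkd_STAT5bCA over aHepGHRkd and none was called for aHepGHRkd over Control. The 3 are 60% of this small group, beside 2.66% of coding features. Cyclin B1 and cyclin B2 are the partners with which Cdk1 drives mitotic entry. Ccnb1 (chromosome 13, 101548694 to 101556441, minus strand) stood at 0.730 TPM in aHepGHRkd_STAT5bCA, 0.0997 in aHepGHRkd_rIGF1, 0.0958 in aHepGHRkd and 0.150 in Control livers. Its ratio of aHepGHRkd_STAT5bCA over aHepGHRkd, 7.65 (log2 2.94; edgeR adjusted p = 1.58e-05, the authors' deposited table), was the largest of the 36. Ccnb2 (chromosome 9, 70255496 to 70269361, minus strand) stood at 1.91, 0.465, 0.521 and 0.471 TPM in aHepGHRkd_STAT5bCA, aHepGHRkd_rIGF1, aHepGHRkd and Control livers, with a ratio of 3.78 in the authors' deposited table (log2 1.92; edgeR adjusted p = 0.000407). For both cyclins the aHepGHRkd_STAT5bCA value stood alone above 3 low groups, at 4.86 and 4.05 times the Control TPM (no test).

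Cdk1 (chromosome 10, 68797894 to 68815660, minus strand), whose upstream sequence above carries all 3 cell cycle motifs, stood at 0.584 TPM in aHepGHRkd_STAT5bCA, 0.377 in aHepGHRkd_rIGF1, 0.206 in aHepGHRkd and 0.338 in Control livers. Its ratio of aHepGHRkd_STAT5bCA over aHepGHRkd was 2.89 (log2 1.53; edgeR adjusted p = 0.000381, the authors' deposited table). aHepGHRkd was the lowest group, with 0.611 of Control (adjusted p = 0.936, the authors' deposited table), and aHepGHRkd_STAT5bCA reached 1.73 times the Control TPM. Ccna2, cyclin A2, was at 3.60, 2.68, 2.91 and 3.04 TPM in aHepGHRkd_STAT5bCA, aHepGHRkd_rIGF1, aHepGHRkd and Control livers and was not called. Foxm1, a transcription factor of G2 and mitotic genes, was at 0.306, 0.198, 0.228 and 0.125 TPM in that order and was not called, although its ratio of aHepGHRkd over Control, 1.74 (adjusted p = 1, the authors' deposited table), was the highest of these 5. Cdk1 overlaps an antisense noncoding feature, and Ccna2 overlaps Exosc9 on the other strand. No source used here says whether reads were counted by strand.

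The mitotic group has 11 genes, of which 10 had their highest value in aHepGHRkd_STAT5bCA livers and 2 were called higher there than in aHepGHRkd. Those 2 are 18.2% of the group, beside 2.66% of coding features. Mki67 (chromosome 7, 142881471 to 142908062, minus strand), the Ki-67 protein that coats mitotic chromosomes and marks cycling cells, stood at 0.774 TPM in aHepGHRkd_STAT5bCA, 0.322 in aHepGHRkd_rIGF1, 0.297 in aHepGHRkd and 0.193 in Control livers. Its ratio of aHepGHRkd_STAT5bCA over aHepGHRkd was 2.67 (log2 1.42; edgeR adjusted p = 1.78e-06, the authors' deposited table). For aHepGHRkd over Control its ratio of 1.54 was not called (adjusted p = 0.206, the authors' deposited table). Cdc20 (chromosome 4, 118105506 to 118109948, minus strand), which activates the anaphase-promoting complex, stood at 2.05, 0.585, 0.768 and 0.228 TPM in aHepGHRkd_STAT5bCA, aHepGHRkd_rIGF1, aHepGHRkd and Control livers. It had 2.85 for aHepGHRkd_STAT5bCA over aHepGHRkd (log2 1.51; edgeR adjusted p = 0.0243) and 3.14 for aHepGHRkd over Control (adjusted p = 0.105) in the authors' deposited table, and only the first was called. It also overlaps the gene Elovl1 on the other strand.

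Of the 9 mitotic genes not called, Bub1, a spindle checkpoint kinase, had the highest ratio of aHepGHRkd_STAT5bCA over aHepGHRkd at 4.26 (edgeR adjusted p = 0.576, the authors' deposited table), on 0.0940 TPM against 0.0231 TPM. Aurka, the Aurora A kinase of the spindle poles, had the lowest at 1.02, and lay below 1 by its TPM values. The DNA-unwinding topoisomerase Top2a had 1.67 (adjusted p = 0.417, the authors' deposited table), at 0.560 TPM in aHepGHRkd_STAT5bCA against 0.349 in aHepGHRkd. The other 6 lay between 1.16 for the kinesin Kif20a and 1.91 for Plk1, the Polo-like kinase of mitotic entry (adjusted p = 0.903, the authors' deposited table), with Aurkb and Birc5 of the chromosomal passenger complex, the checkpoint gene Bub1b and the spindle kinesin Kif11 between them. Summed over the 11 genes, transcripts reached 11.2 TPM in aHepGHRkd_STAT5bCA, 7.39 in aHepGHRkd_rIGF1, 7.99 in aHepGHRkd and 6.14 in Control livers. All 11 deposited ratios of this group lay above 1 in that comparison, as did 31 of the 36 genes and 48.9% of the coding features (30 genes and 38.8% by the ratio of the TPM values). For aHepGHRkd over Control, 10 of the 11 mitotic genes lay above 1, beside 55.8% of the coding features, and 0 were called. Cdc20 was highest there and Bub1 lowest at 0.715 (adjusted p = 1, the authors' deposited table). In aHepGHRkd_STAT5bCA over aHepGHRkd, the genes of the 36 below 1 were the 3 D-type cyclins, Cdk4 and Pcna.

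**Figure D4:**
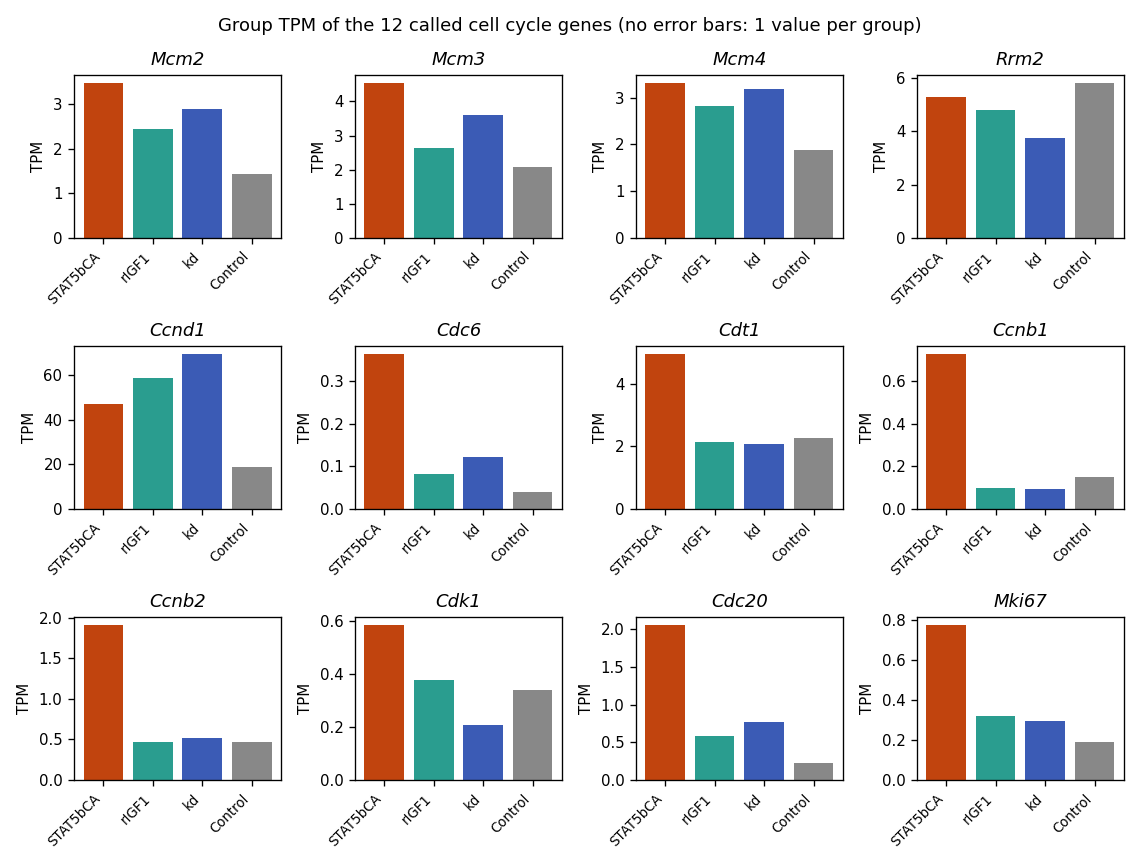
Group TPM (y axis, from 0, own scale per panel) of the 12 genes called in any comparison; bars are single deposited values with no error. Ccnb1, Ccnb2, Cdc20, Cdc6, Cdt1 and Mki67 show 1 tall aHepGHRkd_STAT5bCA bar, such as 0.730 TPM for Ccnb1 against 0.0958 in aHepGHRkd, whereas Ccnd1 is tallest in aHepGHRkd and Rrm2 in Control.

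By TPM alone, with no test, all 7 genes that rose in aHepGHRkd_STAT5bCA over aHepGHRkd also lay above Control there, at 1.73 (Cdk1) to 9.22 (Cdc6) times its value. In aHepGHRkd livers 4 of the 7 lay above Control and 3 (Ccnb1, Cdk1 and Cdt1) below it. The 4 genes that rose in aHepGHRkd over Control also lay above Control in aHepGHRkd_STAT5bCA livers, at 1.76 to 2.52 times its value, and in aHepGHRkd_rIGF1 livers, at 1.27 to 3.15 times its value. All 7 of the first set have a promoter window, of which 4 hold CHR letters (Ccnb2, Cdc20, Cdk1 and Mki67), 3 hold E2F letters (Cdc6, Cdk1 and Cdt1), 5 hold CCAAT and 0 hold STAT letters. Ccnb1 holds CCAAT only, at -99 and -67.

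Genes of the same pathway outside the 36 were taken from 8 lists with 144 genes, counted once each. For aHepGHRkd over Control 15 of them were called higher (10.4%, beside 2.47% of coding features) and 5 lower (3.47%, beside 2.89%). Of these 15, 11 belong to the list of p53 targets, and the only others were Mad2l1, Mybl1, Pold2 and Rpa2. The higher share of the 144 thus rests mostly on that 1 list. Of the 144, 13 were called higher for aHepGHRkd_STAT5bCA over aHepGHRkd (9.03%, beside 2.66%) and 0 lower (beside 0.61%), and for aHepGHRkd_rIGF1 over aHepGHRkd 0 in either direction, with 141 at an adjusted p of exactly 1 (edgeR, the authors' deposited table). The inhibitors and pocket proteins that restrain G1 gave 1 higher call of 10 for aHepGHRkd over Control (10%, beside 2.47% of coding features) and no other call. It was Cdkn1a, the inhibitor p21, at 45.2 TPM in aHepGHRkd_STAT5bCA, 57.6 in aHepGHRkd_rIGF1, 47.9 in aHepGHRkd and 11.8 in Control livers (ratio of aHepGHRkd over Control 4.03, edgeR adjusted p = 9.37e-24, the authors' deposited table). Cdkn1a thus stood high in the 3 groups with Cre, as Ccnd1 did. Of 15 other cyclins and kinases, 1 was called higher for aHepGHRkd over Control (6.67%, beside 2.47% of coding features). This was the cyclin G1 gene Ccng1, at 39.0 TPM in aHepGHRkd against 20.1 in Control livers (1.92, edgeR adjusted p = 1.35e-10, the authors' deposited table).

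In the list of E2F and DREAM complex partners, 1 of 16 was called higher and 1 lower for aHepGHRkd over Control. That is 6.25% each way, beside 2.47% and 2.89% of coding features. E2f8, an atypical E2F that represses S phase genes and shapes hepatocyte ploidy in mice, stood at 7.43 TPM in aHepGHRkd_STAT5bCA, 0.494 in aHepGHRkd_rIGF1, 0.702 in aHepGHRkd and 6.16 in Control livers. Its ratios in the authors' deposited table were 10.8 for aHepGHRkd_STAT5bCA over aHepGHRkd (edgeR adjusted p = 1.52e-32) and 0.114 for aHepGHRkd over Control (adjusted p = 9.76e-20). E2f8 was high in aHepGHRkd_STAT5bCA and Control livers and low in the other 2 groups. It overlaps 2 antisense noncoding features. Mybl1, a Myb family factor, was at 0.758, 0.998, 0.958 and 0.224 TPM in aHepGHRkd_STAT5bCA, aHepGHRkd_rIGF1, aHepGHRkd and Control livers (4.19 for aHepGHRkd over Control, edgeR adjusted p = 1.73e-18, the authors' deposited table).

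Among 19 further licensing and firing factors, 1 was called lower for aHepGHRkd over Control and the same gene higher for aHepGHRkd_STAT5bCA over aHepGHRkd. That is 5.26% of the list, beside 2.89% and 2.66% of coding features. Mcm10, which helps activate the helicase and is not part of the Mcm2-7 ring, stood at 27.8 TPM in aHepGHRkd_STAT5bCA, 17.6 in aHepGHRkd_rIGF1, 17.1 in aHepGHRkd and 41.1 in Control livers. Its ratios in the authors' deposited table were 1.70 for aHepGHRkd_STAT5bCA over aHepGHRkd (edgeR adjusted p = 0.00214) and 0.408 for aHepGHRkd over Control (adjusted p = 2.53e-14), the opposite direction to Mcm2, Mcm3 and Mcm4. Of 27 fork and nucleotide genes, 2 rose (Rpa2 and Pold2) and 1 fell (Tk1) for aHepGHRkd over Control. These are 7.41% and 3.70%, beside 2.47% and 2.89% of coding features. Tk1, thymidine kinase 1, was at 21.0, 20.8, 17.6 and 30.3 TPM in aHepGHRkd_STAT5bCA, aHepGHRkd_rIGF1, aHepGHRkd and Control livers (0.572 for aHepGHRkd over Control, edgeR adjusted p = 0.00320, the authors' deposited table), and it overlaps Afmid on the other strand. Rpa2, a subunit of the single-strand binding protein, was at 6.70 TPM in aHepGHRkd against 4.10 in Control livers (1.62, edgeR adjusted p = 0.000433, the authors' deposited table).

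Of 33 other mitotic genes, 7 were called higher for aHepGHRkd_STAT5bCA over aHepGHRkd (21.2%, beside 2.66% of coding features) and 0 lower (beside 0.61%). They were Cdca3, Cdca5, Ect2, Hmmr, Kif2c, Kif4 and Tpx2. Of these, Cdca5, Hmmr, Kif2c, Kif4 and Tpx2 stood below 0.5 TPM in every group. In aHepGHRkd_STAT5bCA livers they lay between 0.200 TPM (Kif4) and 0.499 TPM (Tpx2), and with depth unknown their precision cannot be given. Ect2, an activator of cytokinesis, stood at 0.915, 0.298, 0.238 and 0.292 TPM in aHepGHRkd_STAT5bCA, aHepGHRkd_rIGF1, aHepGHRkd and Control livers (3.96 for aHepGHRkd_STAT5bCA over aHepGHRkd, edgeR adjusted p = 4.96e-10, the authors' deposited table). Cdca3, which helps degrade inhibitors of mitotic entry, stood at 3.66, 1.54, 1.93 and 1.78 TPM in the same order (1.97, edgeR adjusted p = 0.0446, the authors' deposited table). For aHepGHRkd over Control 1 of the 33 was called higher (3.03%, beside 2.47% of coding features). It was the checkpoint gene Mad2l1, at 2.97 TPM in aHepGHRkd against 1.81 in Control livers (1.62, edgeR adjusted p = 0.00850, the authors' deposited table).

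**Figure D5:**
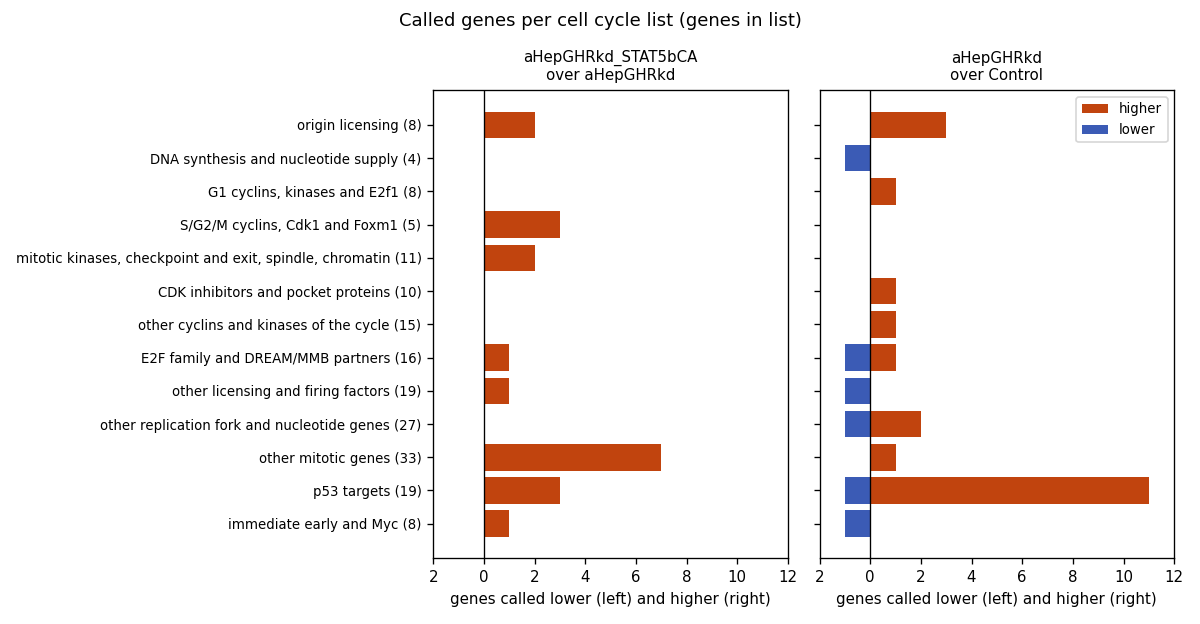
Number of genes called higher (right of 0) and lower (left of 0) in the 5 role groups of the 36 genes and in 8 further lists, with list sizes in brackets; the aHepGHRkd_rIGF1 comparison is not drawn because it has 0 calls. The longest bar for aHepGHRkd_STAT5bCA over aHepGHRkd belongs to the other mitotic genes (7 of 33 higher), and the longest for aHepGHRkd over Control to the p53 targets (11 of 19 higher). Of coding features, 2.66% and 2.47% were called higher in these comparisons.

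The labels name hepatocytes as the cell type but RNA came from whole liver, and markers of other liver cells were detected, so fewer cells of a type and less RNA per cell cannot be told apart. Over 10 hepatocyte markers, 1 was called higher and 2 lower for aHepGHRkd over Control, and 1 higher and 1 lower for aHepGHRkd_STAT5bCA over aHepGHRkd. That is 10% and 20%, beside 2.47% and 2.89% of coding features, and 10% each way, beside 2.66% and 0.61%. Kupffer cell markers (11 genes) summed to 173 TPM in aHepGHRkd_STAT5bCA, 167 in aHepGHRkd_rIGF1, 165 in aHepGHRkd and 133 in Control livers with 0 called, and so stood lowest in Control, as Mcm2, Mcm3, Mcm4 and Ccnd1 did. Also lowest in Control were the sums over hepatocyte markers (121521, 122286, 115462 and 106625 TPM in the same order), lymphocyte markers and sinusoidal endothelial markers. The part of any of these cells in the results for Mcm2, Mcm3, Mcm4 and Ccnd1 was not tested. Sums over lymphocyte markers (10 of 11 in the table) were 5.88, 7.62, 6.40 and 5.83 TPM, over 6 neutrophil markers 13.9, 11.1, 12.7 and 11.2 TPM, and over 8 sinusoidal endothelial markers 76.4, 87.2, 77.9 and 75.0 TPM in the same order, with 0 called in any comparison. Stellate cell markers (9 genes; 58.1, 101, 62.1 and 64.1 TPM) and cholangiocyte markers (6 genes; 40.2, 71.0, 53.5 and 48.3 TPM) were highest in aHepGHRkd_rIGF1 livers, again with 0 called. Erythroid markers (8 genes) summed to 466, 560, 293 and 497 TPM in the same order, and were lowest in aHepGHRkd. Of these 8, only Alas2 was called, and it fell for aHepGHRkd over Control (0.595) and for aHepGHRkd_STAT5bCA over aHepGHRkd (0.666) in the authors' deposited table. The haemoglobin genes Hba-a1, Hba-a2, Hbb-b1 and Hbb-b2 had ratios of aHepGHRkd_STAT5bCA over aHepGHRkd between 1.86 and 2.04, not called (adjusted p between 0.217 and 0.456, the authors' deposited table). The median log2 ratio of the 8 erythroid markers in that comparison was 0.91, with 6 of 8 above 1. In aHepGHRkd_STAT5bCA over aHepGHRkd, where the 7 cycle genes rose, the 1 marker called higher of all lists was F2, of hepatocytes, while the ratios of all 11 Kupffer cell markers lay above 1 (at most 1.17) and those of all 9 stellate cell markers below 1 (the authors' deposited table). The part of these and of the erythroid markers in that result was not tested. Of the 36 genes, 11 overlap another annotated feature, 10 of them on the opposite strand, and 25 overlap none. Among the 10 are Ccnd1 (Lto1), Ccna2 (Exosc9), Kif20a (Brd8 and Cdc23), Cdk1 and Cdc20.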

How the data were processed

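RNA of 24 livers in 4 groups, taken from the labels, was sequenced after polyA selection per the labels' protocols. The submitters' processing notes name the authors' tools as STAR, an aligner, featureCounts, a read counter, and edgeR, without roles; versions and the strand setting are not given in the sources used here. Per the file headers, the deposited table lists 75798 features on mm9, of which 75794 were read and 4 lines, left empty, were not analysed here. The authors deposited TPM as 1 value for each group, with a sum of 999981 to 999989 per group. Per the file headers, the ratio of 2 groups (linear fold) comes from the authors' own edgeR run. The deposited p-value has no stated adjustment and was read as Benjamini-Hochberg adjusted, because 69174, 75054 and 72384 of its values are exactly 1 for aHepGHRkd over Control, aHepGHRkd_rIGF1 over aHepGHRkd and aHepGHRkd_STAT5bCA over aHepGHRkd. The header of the table gives 216 features up and 526 down by at least 2-fold for aHepGHRkd over Control, and the same numbers were counted with a p under 0.05. It gives, for aHepGHRkd_STAT5bCA over aHepGHRkd, 575 up and 48 down, and 574 and 48 were counted.

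TPM keeps no depth, which is therefore unknown, and no interval is given. Called means a deposited p under 0.05. Background shares are over coding features with at least 0.1 TPM in 1 or both groups, which 35, 34 and 35 of the 36 genes reached in the 3 comparisons in the order above. Tables were read with Python 3.11.15, pandas 2.3.3 and numpy 2.4.6, and the counting was tested on simulated data. TPM ratios to Control were computed here and carry no test. The 36 genes and all lists were chosen with earlier results of these data known. Full values are given for every gene of the 36 that was called, for Mki67 and for D-type cyclins, and the rest by range with the extremes of each role. In other lists, called genes with a ratio of at least 1.5 in either direction and at least 0.5 TPM are named, at most 6 per list. Cdca5, Hmmr, Kif2c, Kif4, Tpx2, Pold2, Plk2 and Plk3 fall outside that rule and are named because their lists' calls are counted. Alternatives were another p threshold, a fold minimum, a TPM minimum, TPM ratios and pseudocounts of 0.1 and 1. Coordinates of genes are mm9, those of promoter sequences GRCm38.p6 (RefSeq), and none were converted. A planned comparison of cyclin D proteins was not made.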

Additional observations from a re-analysis of the deposited data

How the results depend on the processing

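No paired analysis was possible because the table used here holds no value per animal; for the same reason leaving out each replicate and a replicate block were not run, and no value rests on a named library. Over the 36 genes, no count of calls and no median log2 ratio changed direction under the alternatives tried; for aHepGHRkd_rIGF1 over aHepGHRkd, where no gene was called, role group medians did with the TPM ratio, at -0.0765 by the deposited ratio against 0.0293 for the G1 genes and -0.0201 against 0.0769 for the mitotic genes. For aHepGHRkd over Control, the 4 genes called higher became 2 at an adjusted p under 0.01 (Ccnd1 and Mcm2) and 1 with a fold of at least 2 (Ccnd1), and the 1 called lower became 0 under either. For aHepGHRkd_STAT5bCA over aHepGHRkd, the 7 called higher became 3 when only genes with at least 1 TPM were kept (Cdt1, Ccnb2 and Cdc20), since the other 4 lie below 1 TPM in both groups, and were 6 at an adjusted p under 0.01 and 7 with a fold of at least 2. The median log2 ratio of the 36 genes was 0.2272 for aHepGHRkd over Control and 0.09953 with a pseudocount of 1 TPM. For aHepGHRkd_STAT5bCA over aHepGHRkd it was 0.4745, and 0.3495 with a pseudocount of 0.1 TPM, 0.2058 with 1 TPM and 0.2926 over genes with at least 1 TPM. For aHepGHRkd_rIGF1 over aHepGHRkd it was -0.1408, and -0.03468 by the TPM ratio, -0.03458 with a pseudocount of 0.1 TPM and -0.02533 with 1 TPM. In that comparison the deposited ratio and the TPM ratio differ in scale, with a median over coding features of -0.00406 against 0.0957, and Birc5, Ccnb1, Cdt1, E2f1, Mcm7 and Tyms lie on opposite sides of 1 by the 2 measures. Of 108 single-gene ratios, 12 shifted by at least 0.1 on the log2 scale with the TPM ratio and 40 with a pseudocount of 0.1 TPM. Ccnb1, Cdc6, Cdk1, Mki67 and Bub1 stood below 1 TPM in every group, and so did Foxm1, Aurkb, Plk1, Bub1b, Birc5, Kif11 and Top2a. With depth unknown, the precision of all these genes cannot be given.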

Other observations

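Targets of p53, a list that shares Cdkn1a with the CDK inhibitors and Ccng1 with the other cyclins, held the largest count of calls of the cycle lists for aHepGHRkd over Control. Of 19 genes 11 were called higher (57.9%, beside 2.47% of coding features) and 1 (Plk3) lower (5.26%, beside 2.89%) in the authors' deposited table (edgeR). This list, like the others, was chosen with earlier results of these data known, so its share is a description only. Phlda3, an inhibitor of Akt signalling, stood at 11.5 TPM in aHepGHRkd_STAT5bCA, 8.98 in aHepGHRkd_rIGF1, 8.85 in aHepGHRkd and 2.06 in Control livers (4.25 for aHepGHRkd over Control, edgeR adjusted p = 4.19e-19, the authors' deposited table). Psrc1 stood at 0.962, 1.46, 1.59 and 0.268 TPM in the same order (5.68, adjusted p = 1.15e-05), and the antiproliferative gene Btg2 at 11.1, 12.7, 13.7 and 7.22 TPM (1.87, adjusted p = 0.000162; edgeR, the authors' deposited table). For these 3 genes, as for Ccnd1 and Cdkn1a, the 3 groups with Cre lay above Control. For aHepGHRkd_STAT5bCA over aHepGHRkd, 3 of the 19 were called higher (Eda2r, Plk2 and Tnfrsf10b; 15.8%, beside 2.66% of coding features) and 0 lower (beside 0.61%). Cre distinguishes these groups from Control as well as Ghr does, and the 2 cannot be told apart in this design.

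Of 8 immediate early genes and Myc, 1 was called lower for aHepGHRkd over Control and the same 1 higher for aHepGHRkd_STAT5bCA over aHepGHRkd. That is 12.5% of the list, beside 2.89% and 2.66% of coding features. Myc, a transcription factor of growth and proliferation, stood at 5.47 TPM in aHepGHRkd_STAT5bCA, 2.37 in aHepGHRkd_rIGF1, 2.13 in aHepGHRkd and 4.67 in Control livers. Its ratios in the authors' deposited table were 2.68 for aHepGHRkd_STAT5bCA over aHepGHRkd (edgeR adjusted p = 9.62e-09) and 0.449 for aHepGHRkd over Control (adjusted p = 0.00357). These comparisons share the aHepGHRkd animals.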
